A study of Mus musculus with 6 samples.

Results

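The 46 genes described here are protein-coding genes of mitosis and of the G2 phase that precedes it, listed by name; the rule that picks them uses no measured value, but the list was drawn up with earlier results of these data known. They were read from RNA sequencing of αTC1, a glucagonoma-derived mouse cell line that stands for the α cell of the pancreas and makes glucagon. All 46 were found among the 55487 genes of the deposited counts, and all were among the 15082 genes with enough counts to be tested. The design compares cells given an SMNDC1 inhibitor, labelled G786-1089, with cells given its solvent DMSO, with 3 libraries in each group. The columns of all 6 libraries are labelled WT (wild type). SMNDC1 is a splicing factor that binds dimethylated arginine through its Tudor domain. All 6 libraries come from 1 cell line, the labels used here state neither the dose nor the duration of treatment, and they do not say whether the 3 libraries of a group were separate cultures, so that the p-values measure the spread between these libraries. The study's methods state for its culture experiments that the treatments of a replicate came from one batch of cells and were handled together, but no source ties a column letter to a replicate. Libraries are named by group and by the letter of their column (A, B or C).

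Cells enter mitosis when the kinase CDK1, bound to cyclin A or cyclin B and released from inhibitory phosphate by CDC25 phosphatases, becomes active. PLK1 and the Aurora kinases then build the spindle, kinetochores join chromosomes to its microtubules, and the spindle assembly checkpoint holds the anaphase-promoting complex in check until all chromosomes are attached. That complex marks securin and cyclin B for destruction, the sister chromatids part, and a contractile ring divides the cell. The mRNAs of most of these proteins are themselves periodic and peak in G2 and mitosis. The MuvB complex, with the repressors of the DREAM complex in resting cells and with B-MYB and FOXM1 in dividing cells, binds their promoters at the cell cycle genes homology region (CHR), and the factor NF-Y binds CCAAT boxes beside it.

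Because the genes are known for this shared promoter layout, RefSeq promoter windows of 300 bases (GRCm38.p6, 250 before and 50 after the start site) were searched on both strands for the CHR, spelled TTTGAA or TTCGAA, and for CCAAT. The 2 spellings can share a base, and they did so in 1 of the members' windows, that of Cdca8. Of the 46 genes, 38 had an entry, with 40 windows, while Spc24, Ccna2, Incenp, Kif20a, Cdc25c, Tpx2, Aurkb and Foxm1 had none. A CHR was found in 31 of the 40 windows (77.5%), against 19.2% of all 32851 windows. A CCAAT box was found in 32 (80.0%), against 37.4%, and both in 28 (70.0%), against 7.52%. In 15 windows (37.5%, against 0.916% of all) the nearest CCAAT box on the upstream side of a CHR began 25 to 50 bases before it. These matches describe the letters and do not show that a factor is bound.

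The stretches just before the RefSeq start site of 8 genes are printed because they place both motifs in genes that passed the test and in genes that did not, with CHR and CCAAT matches in capitals. Plk1, Ccnb2, Cdk1, Ube2c and Top2a fell in inhibitor-treated cells, and Cdc20, Kif11 and Mki67 did not pass the test. Top2a and Cdc20 had similar log2 changes, -0.51 and -0.49, on either side of the threshold (edgeR adjusted p = 0.043 and 0.060). The CHRs of Plk1 and one of those of Ccnb2 start 31 and 5 bases after the start site, past the end of the printed stretch.
Plk1: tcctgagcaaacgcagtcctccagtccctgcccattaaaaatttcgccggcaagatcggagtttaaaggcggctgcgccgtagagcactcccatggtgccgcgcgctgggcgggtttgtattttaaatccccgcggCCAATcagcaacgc
Ccnb2: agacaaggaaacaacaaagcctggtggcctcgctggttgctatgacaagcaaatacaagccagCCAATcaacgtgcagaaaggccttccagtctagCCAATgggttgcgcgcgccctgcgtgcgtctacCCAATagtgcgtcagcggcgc
Cdk1: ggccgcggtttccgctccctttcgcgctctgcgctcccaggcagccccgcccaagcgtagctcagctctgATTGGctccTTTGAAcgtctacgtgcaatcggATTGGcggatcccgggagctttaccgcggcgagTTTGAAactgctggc
Ube2c: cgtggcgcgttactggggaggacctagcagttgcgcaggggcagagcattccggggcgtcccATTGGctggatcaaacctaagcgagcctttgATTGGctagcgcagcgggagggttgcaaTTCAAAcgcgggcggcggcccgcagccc
Top2a: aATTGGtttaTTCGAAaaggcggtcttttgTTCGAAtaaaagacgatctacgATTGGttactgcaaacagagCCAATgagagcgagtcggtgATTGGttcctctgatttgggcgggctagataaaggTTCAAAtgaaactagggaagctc
Cdc20: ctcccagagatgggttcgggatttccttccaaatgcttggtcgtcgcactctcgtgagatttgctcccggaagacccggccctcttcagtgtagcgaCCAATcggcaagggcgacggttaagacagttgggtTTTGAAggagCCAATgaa
Kif11: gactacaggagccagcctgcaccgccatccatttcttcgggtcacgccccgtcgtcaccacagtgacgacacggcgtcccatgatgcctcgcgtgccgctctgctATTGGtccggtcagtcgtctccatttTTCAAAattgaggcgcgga
Mki67: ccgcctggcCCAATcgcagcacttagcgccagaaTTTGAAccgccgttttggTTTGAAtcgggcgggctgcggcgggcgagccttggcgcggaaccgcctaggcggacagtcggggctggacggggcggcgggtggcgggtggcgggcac
In GRCm38.p6 these stretches lie at chr7:122159285-122159434 on the plus strand (Plk1), chr9:70421555-70421704 on the minus strand (Ccnb2), chr10:69352913-69353062 on the minus strand (Cdk1) and chr2:164769779-164769927 on the plus strand (Ube2c). The others lie at chr11:99024190-99024339 on the minus strand (Top2a), chr4:118437344-118437493 on the minus strand (Cdc20), chr19:37376232-37376381 on the plus strand (Kif11) and chr7:135716380-135716529 on the minus strand (Mki67).

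Both motifs were found among genes that fell and among genes that did not pass the test. Windows of genes that fell held a CHR in 14 of 20 and a CCAAT box in 14 of 20, and those of genes that did not pass the test held them in 17 of 20 and 18 of 20. Cdk1 and Kif11 both carry a CCAAT box followed by a CHR close to the start site, and their changes on the log2 scale were -0.67 and -0.03. No CHR or CCAAT letters were found in the windows of Pttg1, Birc5, Mad2l1, Nuf2 and Nusap1, all of which fell. In genes of DNA replication and G1/S, a comparison list, 7 of 44 windows (15.9%) held a CHR. A CCAAT box was found in 27 of 44 (61.4%). Both motifs were also common in a list of other mitosis genes. There 33 of 53 windows (62.3%) held a CHR, 37 (69.8%) a CCAAT box and 24 (45.3%) both. In 9 of the 53 windows (17.0%) the nearest upstream CCAAT box began 25 to 50 bases before a CHR. Of the 58 genes on that list, 6 were lower (10.3%) and 3 higher (5.17%) in inhibitor-treated cells.

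**Figure D1:**
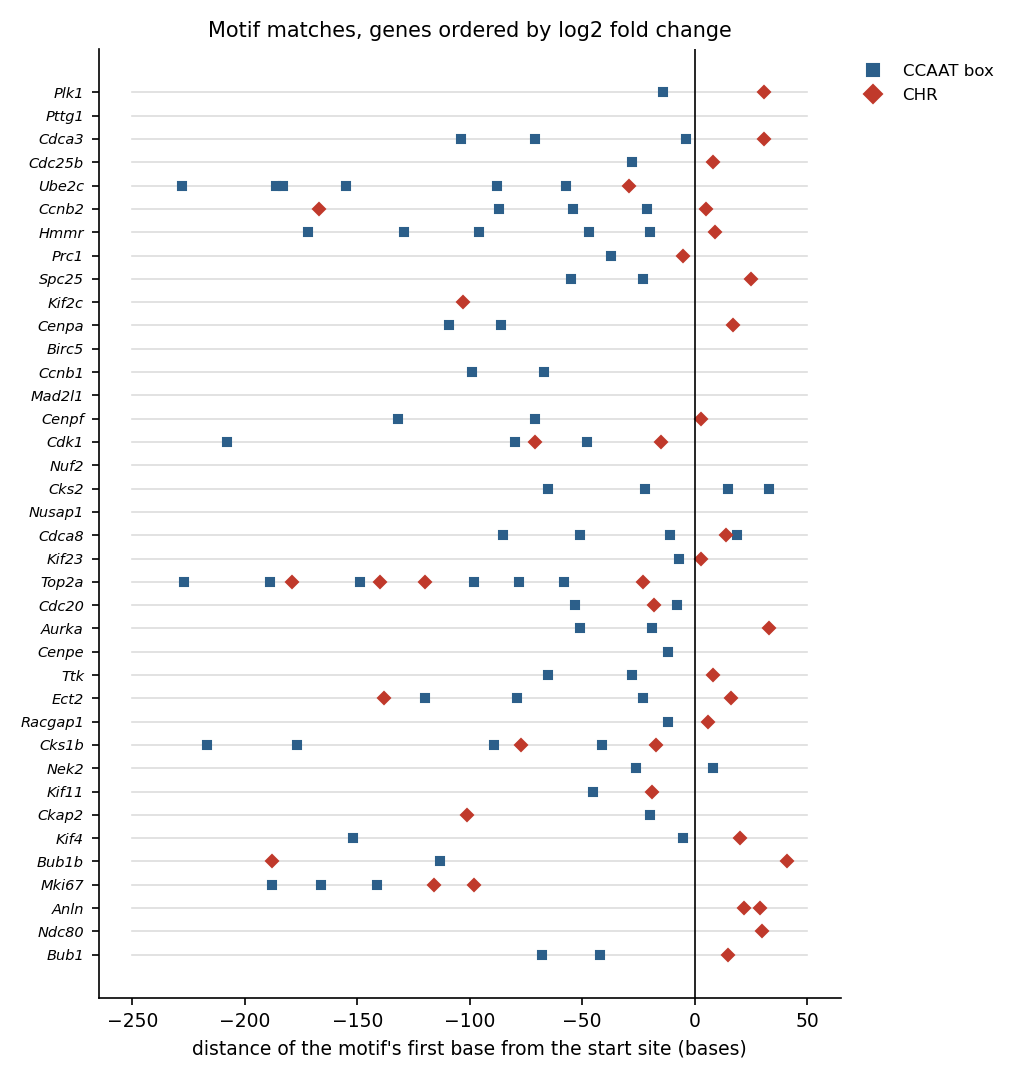
Positions of CHR (diamonds) and CCAAT (squares) matches in the RefSeq windows of 38 genes, ordered from the largest fall (top) to the largest increase (bottom) in log2 fold change; the x axis is the distance of a match's first base from the start site in bases, and the first window is drawn where a gene has 2. Matches sit close to the start site from the top to the bottom of the order, and 5 genes near the top or middle have none.

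The libraries held between 59070705 and 94747943 counts, and every inhibitor library was deeper than every DMSO library. The labelled cell type was checked first. Gcg, the glucagon gene, was at 20240 to 22880 CPM (counts scaled by total and TMM factor to a common library size) in the DMSO libraries and 2832 to 3603 with the inhibitor, a log2 change of -2.76 ± 0.10 (SE). Of 9 α cell markers tested, 5 fell and none rose. Of 10 markers of other islet cells and 12 of other pancreatic and stromal cells, 3 and 4 had enough counts to be tested, and the summed levels per library were 4.82 to 15.4 and 22.4 to 68.3 CPM. Ins1, Pdx1, Sst and Ppy had no counts in any library. In a bulk library, fewer cells in G2 and mitosis and less of an mRNA per cell cannot be told apart.

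Of the 46 genes, 22 were lower in inhibitor-treated cells at an adjusted p under 0.05 and none was higher, and 24 did not pass the test. Over all 15082 genes tested, 7.80% were lower and 6.98% were higher by the same rule. Without adjustment, 29 of the 46 were lower and 0 higher at p under 0.05, against 13.5% and 14.6% of all genes. DESeq2 called 29 lower and 0 higher, against 12.9% and 13.3% of the 16373 genes to which it gave an adjusted p. With the column letter as a replicate block, 17 were lower and 0 higher, against 4.69% and 3.47%. By the study's own filter, an adjusted p of at most 0.1 and at least a 2-fold change, 9 were lower and 0 higher, where 4.16% of all genes were lower and 6.25% higher. The 3 inhibitor values lay below all 3 DMSO values for 30 of the 46 and above them for 0, against 18.5% and 18.2% of all genes. The median log2 change of the 46 was -0.575, beside 0.041 for all genes, and the single values ran from -1.95 (Plk1) to 0.47 (Bub1).

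The 46 genes are more abundant than most, and abundant genes were more often lower in this comparison. Among the 1817 genes at or above the median level of the 46, 34.3% were lower and the median log2 change was -0.234. In that range 17 of 23 members (73.9%) were lower, with a median of -0.668. Among the 5995 genes between the lowest member and that median, 7.27% were lower and the median was 0.111, and 5 of 23 members (21.7%) were lower, with a median of -0.249. The standard errors differed as well, with a median of 0.12 in the 23 more abundant members and 0.21 in the 23 less abundant ones, so that a change of a given size passed the test less readily among the latter.

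Summed over the 46 genes, the level was 6445, 5964 and 5964 CPM in the inhibitor libraries and 10330, 10140 and 10680 CPM in the DMSO libraries. The groups were far apart beside their spread, at 6125 ± 278 against 10380 ± 274 (mean ± SD, n = 3), and the sum with the inhibitor was 59% of that with DMSO. In single genes 9 of the 46 stood below 50% of their DMSO level, 21 between 50% and 75%, and 16 above 75%.

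**Figure D2:**
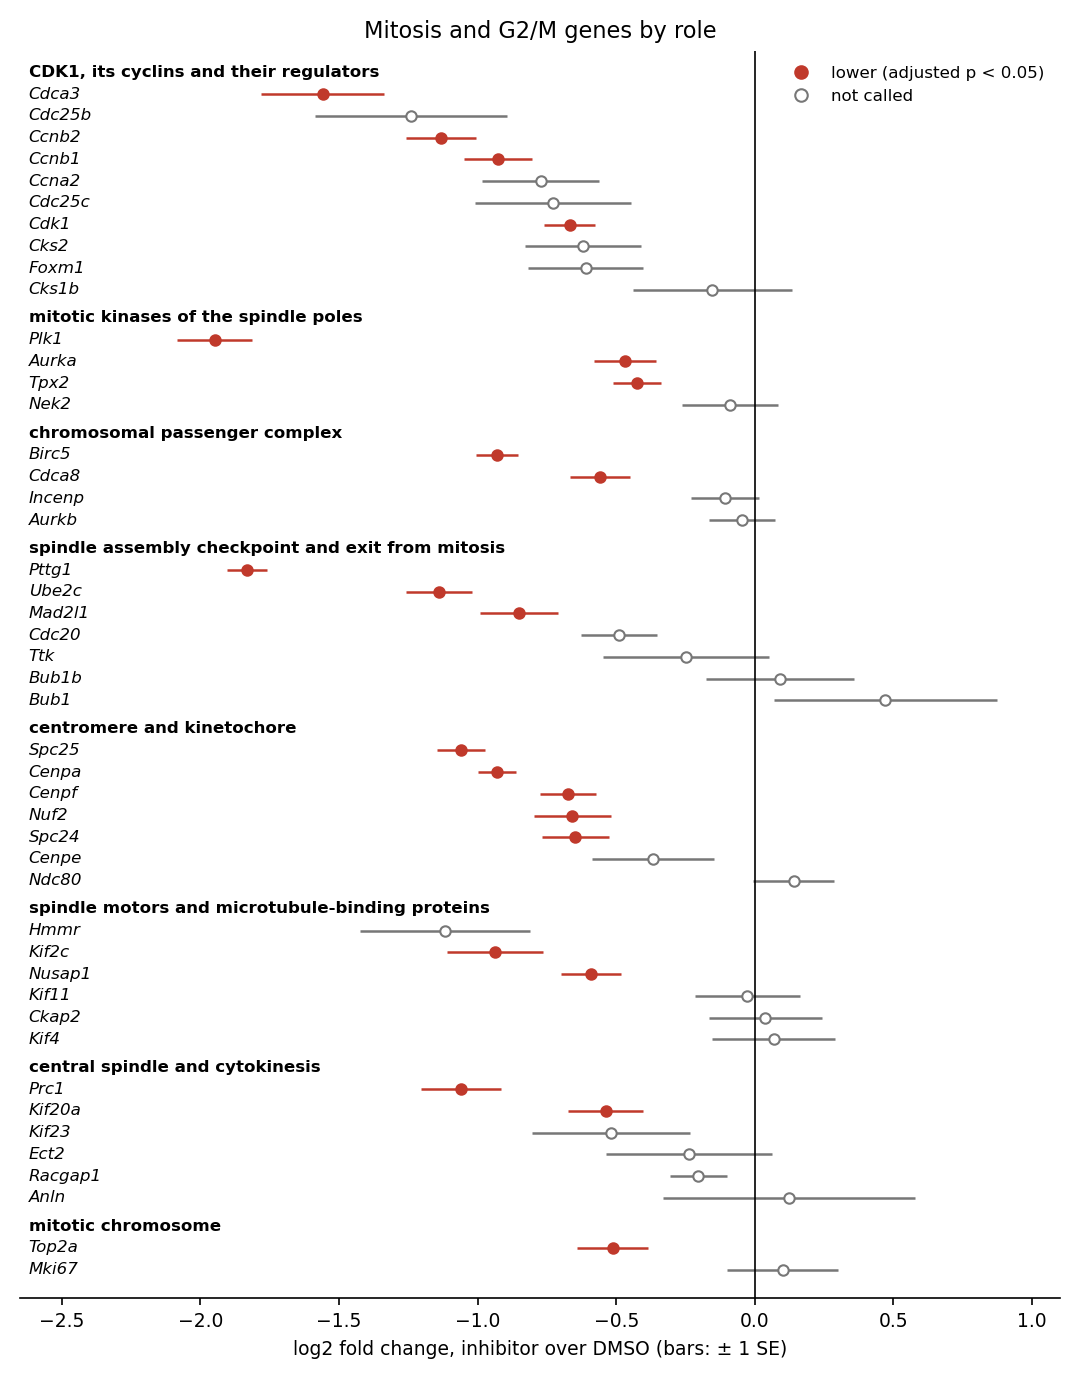
Log2 fold change of inhibitor over DMSO (x axis) for the 46 genes, grouped by role; points are edgeR estimates from 3 libraries against 3, bars are ± 1 SE, and filled red points passed an adjusted p of 0.05. Each role holds both genes well below 0 and genes at or near 0, with Plk1 at -1.95 and Nek2 at -0.09 in the same group.

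Among CDK1, its cyclins and their regulators, 4 of 10 genes fell, all 10 estimates were negative, and the median log2 change was -0.751. Cdk1, the kinase that drives entry into mitosis, stood at 372, 346 and 415 CPM in DMSO libraries A, B and C and at 241, 226 and 247 CPM in inhibitor libraries A, B and C. The groups did not overlap, and the log2 change was -0.67 ± 0.09 (SE, adjusted p = 0.0052). Of the cyclins, Ccnb2 was at 161, 158 and 180 CPM with DMSO and 80.0, 82.0 and 65.6 CPM with the inhibitor, with 45.6% of its level left. Its adjusted p was 0.0024.

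Ccnb1, the other B-type cyclin of mitosis, fell by 0.93 ± 0.12 on the log2 scale (adjusted p = 0.0045), with 488, 517 and 540 CPM in DMSO and 299, 291 and 224 CPM in inhibitor libraries. Its transcripts have near-identical pseudogenes, of which Ccnb1-ps and Gm12856 held counts equal to 3.52% and 2.42% of those of Ccnb1. Ccna2, the cyclin A of S and G2 phase, was lower in every inhibitor library (271, 145 and 212 CPM against 350, 374 and 351), but the inhibitor libraries were widely spread and the adjusted p was 0.056. The Ccna2 log2 change of -0.77 ± 0.21 passed with DESeq2, with limma on FPKM and with gene length or GC content offsets. Of its exon bases, 12.5% are shared with Exosc9 and could not be assigned by strand.

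Cdca3, which encodes an F-box-like protein that promotes destruction of the CDK1-inhibiting kinase WEE1, had the largest fall in this group. It was at 265, 221 and 246 CPM with DMSO and at 100, 91.9 and 56.2 CPM with the inhibitor, a log2 change of -1.56 ± 0.22 (adjusted p = 0.0058). The phosphatase gene Cdc25b had a log2 change of -1.24 and an adjusted p of 0.059. It stood at 81.4, 86.0 and 97.4 CPM with DMSO and at 59.5, 28.6 and 24.0 CPM with the inhibitor. Inhibitor library A lay between the DMSO libraries and inhibitor libraries B and C, and without it the adjusted p was 0.0055 and the log2 change -1.75. With any other single library left out Cdc25b did not pass, and it passed in 6 of 18 alternatives. Cdc25c was low throughout, from 9.40 to 16.1 CPM with the inhibitor and 17.3 to 24.5 with DMSO, and its log2 change of -0.73 ± 0.28 did not pass the test (adjusted p = 0.15).

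The transcription factor gene Foxm1, an activator of many of the genes in this set, had a log2 change of -0.61 ± 0.21 and an adjusted p of 0.10, with 20.2 to 28.8 CPM against 31.8 to 41.4 and no overlap of the groups. The CDK-binding subunit genes Cks1b and Cks2 had log2 changes of -0.15 ± 0.29 and -0.62 ± 0.21, and neither passed. Near-identical pseudogenes of Cks2 (Gm15452, Gm19945 and Gm12891) held counts equal to 4.17%, 3.24% and 1.09% of those of Cks2.

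Among the kinases of the spindle poles, 3 of 4 genes fell and the median log2 change was -0.446. Plk1, the Polo-like kinase of centrosome maturation and mitotic entry, had the largest fall of all 46. It stood at 162, 146 and 139 CPM in the DMSO libraries and at 36.97, 34.96 and 43.78 CPM in the inhibitor libraries, so that 25.9% of the level was left. The log2 change was -1.95 ± 0.14 (adjusted p = 0.00044), and across the 18 alternative analyses it stayed between -2.05 and -1.74 with an adjusted p under 0.05. Of the Plk1 exon bases, 7.1% overlap another annotated gene.

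Aurka, the Aurora kinase of the spindle poles, and Tpx2, which activates it and carries it to microtubules, fell much less, by 0.47 ± 0.11 and 0.42 ± 0.09 on the log2 scale (adjusted p = 0.037 and 0.022, and 0.11 and 0.062 under the replicate block). Aurka was at 228, 281 and 251 CPM with the inhibitor and 373, 312 and 366 CPM with DMSO. Aurka lost its call in 9 of 18 alternatives and Tpx2 in 6, library size as the only scaling among them for both. Nek2, the kinase that splits the centrosome pair, was at 27.5, 30.1 and 26.9 CPM and 27.6, 34.1 and 28.3 CPM, with overlapping groups and a log2 change of -0.09 ± 0.17. The log2 ratio of Plk1 to Aurka in FPKM was -2.90 ± 0.26 with the inhibitor and -1.41 ± 0.16 with DMSO (SD, n = 3), a pair chosen after its values were seen and therefore not tested.

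The chromosomal passenger complex corrects faulty attachments and later helps to place the cleavage furrow. Of its 4 genes 2 fell. Birc5 (survivin) was at 341, 299 and 322 CPM with the inhibitor and 581, 619 and 632 CPM with DMSO, a log2 change of -0.93 ± 0.08 (adjusted p = 0.0008), and Cdca8 (borealin) fell by 0.56 ± 0.11 on the log2 scale (adjusted p = 0.018). Cdca8 lost its call in 5 of 18 alternatives, and Birc5 held its call in all 18. The kinase subunit Aurkb was at 108, 124 and 101 CPM against 121, 108 and 116 CPM, and the scaffold Incenp at 73.9, 75.8 and 69.7 CPM against 85.7, 70.4 and 80.1 CPM. Both pairs of groups overlapped, with log2 changes of -0.05 ± 0.12 and -0.11 ± 0.12. The 2 targeting subunits were thus lower while the estimates for kinase and scaffold were near 0, and in FPKM the log2 ratio of Birc5 to Incenp went from 2.89 ± 0.19 with DMSO to 2.06 ± 0.13 with the inhibitor (SD, n = 3, a pair chosen after its values were seen and not tested).

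Of the genes of the spindle assembly checkpoint and of exit from mitosis, 3 of 7 fell. Pttg1 encodes securin, which holds the protease separase inactive until anaphase. Its values were 661, 675 and 654 CPM with DMSO and 189, 195 and 174 CPM with the inhibitor, with little spread within either group. The log2 change was -1.83 ± 0.07 (adjusted p = 0.0001), which leaves 28.1% of the level. Ube2c, the E2 enzyme that starts ubiquitin chains for the anaphase-promoting complex, was at 748, 606 and 704 CPM with DMSO and 355, 281 and 299 CPM with the inhibitor (log2 change -1.14 ± 0.12, adjusted p = 0.0019). Of its exon bases 22.8% are shared with Tnnc2.

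Mad2l1, which encodes the MAD2 protein that sequesters CDC20, fell by 0.85 ± 0.14 on the log2 scale (adjusted p = 0.010), from 207, 183 and 258 CPM to 123, 113 and 124 CPM. Cdc20 itself, the activator of the anaphase-promoting complex, was below DMSO in every inhibitor library (179, 244 and 217 CPM against 316, 265 and 316), with an adjusted p of 0.060 and a log2 change of -0.49 ± 0.14. The checkpoint kinase genes Ttk, Bub1b and Bub1, with DMSO means of 48.7, 18.9 and 11.7 CPM, overlapped between groups. Ttk had a log2 change of -0.25 ± 0.30, Bub1b of 0.09 ± 0.27 and Bub1 of 0.47 ± 0.40. Bub1, the highest estimate of the 46, was measured at 20.9, 14.0 and 13.7 CPM with the inhibitor and 15.4, 6.08 and 13.6 CPM with DMSO.

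**Figure D3:**
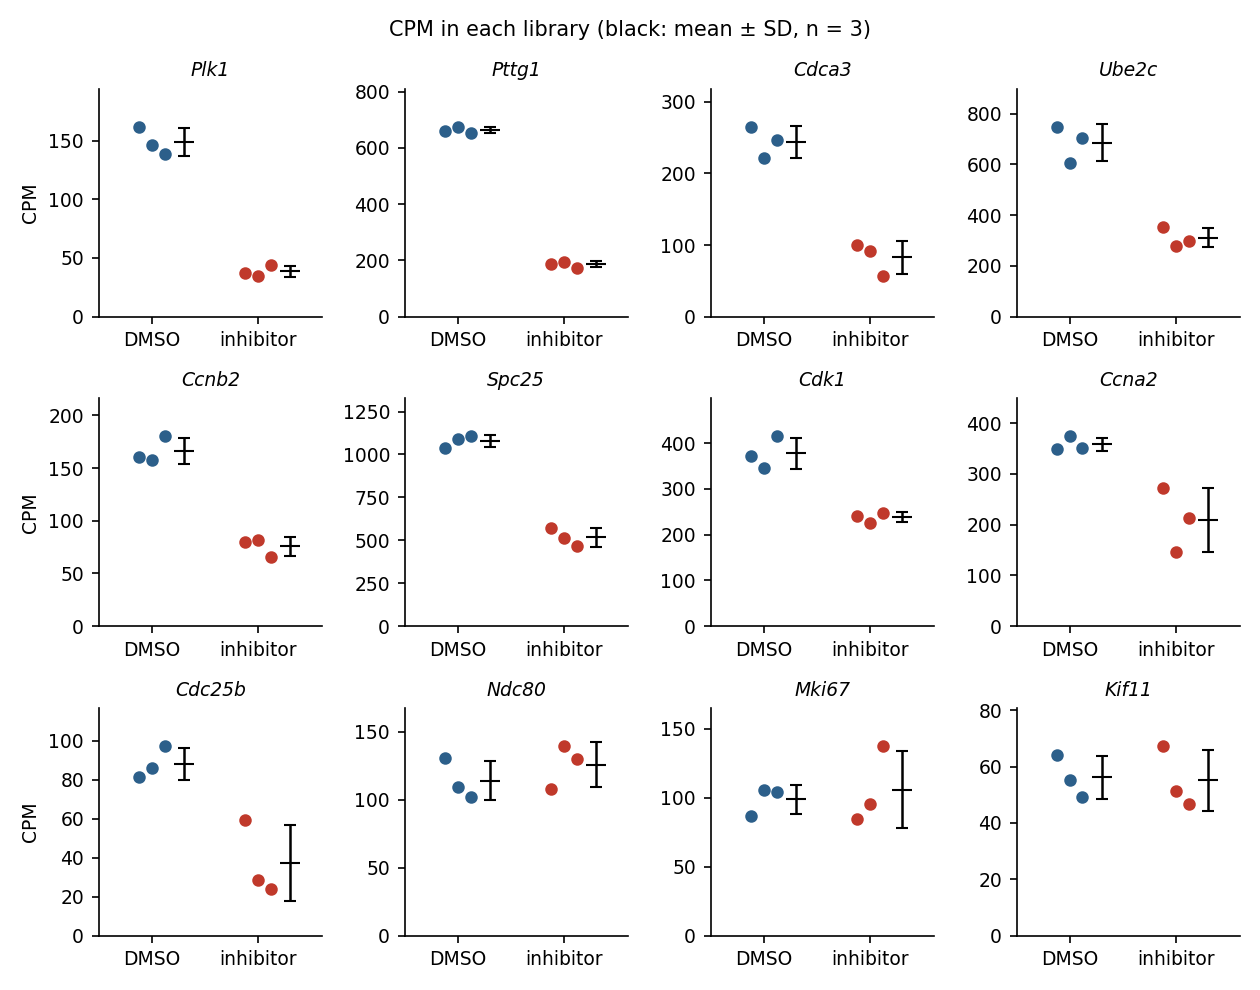
CPM of 12 of the genes in each DMSO (blue) and inhibitor (red) library, with the mean and SD of 3 libraries in black; each y axis starts at 0 and has its own scale. In Plk1, Pttg1 and Ube2c the 2 groups lie far apart, in Ccna2 the inhibitor libraries are widely spread, in Cdc25b 1 of them stands above the other two, and in Ndc80, Mki67 and Kif11 the groups overlap.

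The centromere and kinetochore genes had 5 of 7 members lower. Cenpa, the histone H3 variant that marks centromeres, was at 334, 328 and 358 CPM with the inhibitor and 647, 624 and 672 CPM with DMSO, a log2 change of -0.93 ± 0.07 (adjusted p = 0.00053). Cenpf fell by 0.67 ± 0.10 on the log2 scale (adjusted p = 0.0073), and the kinesin gene Cenpe, at 45.98 to 74.38 CPM against 61.1 to 82.5 CPM, overlapped between groups with a log2 change of -0.37 ± 0.22.

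The NDC80 complex, which grips microtubules at the outer kinetochore, is built from 4 proteins in equal number, and the mRNAs of 3 of them fell. Spc25 was at 1039, 1088 and 1105 CPM with DMSO and 573, 514 and 465 CPM with the inhibitor. Its log2 change was -1.06 ± 0.09 (adjusted p = 0.00077). Nuf2 and Spc24 fell by 0.66 ± 0.14 and 0.65 ± 0.12 on the log2 scale (adjusted p = 0.024 and 0.015). Nuf2 lost its call in 5 of 18 alternatives and Spc24 in 4, and Spc25 held its call in all 18. Ndc80 was at 108, 139 and 130 CPM with the inhibitor and 130, 109 and 102 CPM with DMSO, with a log2 change of 0.14 ± 0.15. The log2 ratio of Nuf2 to Ndc80 in FPKM was 0.15, 0.06 and 0.11 in DMSO libraries and -0.33, -0.92 and -0.79 in inhibitor libraries, without overlap. This pair too was chosen after its values were seen and was not tested, and a gap between groups was to be expected from the choice. Among other pairs chosen this way, Cenpf to Cenpe overlapped between groups. Its log2 ratio differed by -0.29 (inhibitor minus DMSO).

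Among the spindle motors and microtubule-binding proteins 2 of 6 genes fell. Kif2c encodes MCAK, a kinesin that takes microtubules apart, and was at 42.9, 32.9 and 46.9 CPM against 79.1, 71.3 and 84.5 CPM (log2 change -0.94 ± 0.17, adjusted p = 0.015). Nusap1, which bundles spindle microtubules, fell by 0.59 ± 0.11 on the log2 scale (adjusted p = 0.014, and 0.051 under the replicate block). Hmmr, a spindle assembly factor, had a log2 change of -1.12 ± 0.31 and missed the threshold at an adjusted p of 0.056. Inhibitor library B was at 41.4 CPM beside 91.5 CPM in both A and C, and DMSO libraries were at 157, 185 and 145 CPM. Without inhibitor library B, Hmmr passed at an adjusted p of 0.025 with a log2 change of -0.83. With any other single library left out Hmmr did not pass, and it passed in 7 of 18 alternatives. The motors Kif11, which pushes spindle poles apart, and Kif4, a chromokinesin, and the microtubule-associated Ckap2 had log2 changes of -0.03 ± 0.19, 0.07 ± 0.22 and 0.04 ± 0.20, all with overlapping groups.

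In the central spindle and cytokinesis 2 of 6 genes fell. Prc1, which crosslinks the antiparallel microtubules of the midzone, was at 44.0, 42.0 and 37.9 CPM with the inhibitor and 93.74, 74.96 and 89.93 CPM with DMSO, a log2 change of -1.06 ± 0.14 (adjusted p = 0.0051). Kif20a, the kinesin MKLP2 that carries the passenger complex to the midzone, was at 98.4, 83.5 and 80.1 CPM against 117, 143 and 120 CPM. Its log2 change of -0.54 ± 0.13 passed narrowly (adjusted p = 0.042, and 0.10 under the replicate block) and lost its call in 9 of 18 alternatives. Of its exon bases 29.3% are shared with Cdc23. The centralspindlin genes Kif23 and Racgap1 and the RhoA exchange factor gene Ect2 had log2 changes of -0.52 ± 0.29, -0.20 ± 0.10 and -0.24 ± 0.30 and did not pass. Anln, the anillin gene that organises the contractile ring, had few counts, at 4.19 to 11.6 CPM with the inhibitor and 6.33 to 10.2 CPM with DMSO, and a log2 change of 0.12 ± 0.46.

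The remaining pair act on mitotic chromosomes. Top2a, the topoisomerase that untangles sister chromatids, was at 547, 395 and 421 CPM with the inhibitor and 610, 663 and 673 CPM with DMSO, a log2 change of -0.51 ± 0.13 (adjusted p = 0.043, and 0.094 under the replicate block) that lost its call in 8 of 18 alternatives. Mki67, which coats mitotic chromosomes and is widely used as a marker of proliferation, was at 84.7, 95.8 and 138 CPM against 87.1, 106 and 104 CPM. Its groups overlapped, and its log2 change was 0.10 ± 0.20 (adjusted p = 0.80).

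**Figure D4:**
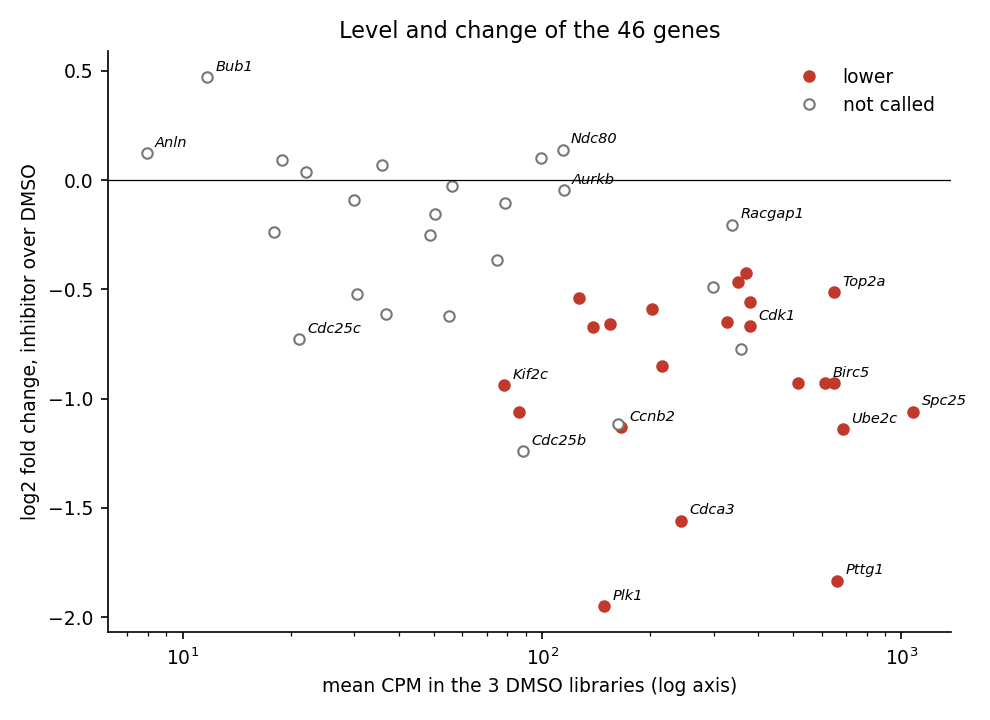
Mean CPM in the 3 DMSO libraries (x axis, log scale) and log2 fold change of inhibitor over DMSO (y axis) for each of the 46 genes; filled red points passed an adjusted p of 0.05. Genes that fell lie mostly to the right, as Spc25 and Pttg1 do, and of the 7 estimates above 0 the one farthest to the right is Ndc80 at 114 CPM.

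Levels between genes were compared per length, in FPKM. In DMSO libraries Spc25 led with a mean of 624, followed by Cenpa at 363 and Pttg1 at 345, while Anln at 1.58 and Bub1 at 3.14 stood last. With the inhibitor the means were 299, 190 and 96.6 for Spc25, Cenpa and Pttg1.

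Gene length moved with the response. Across the 46 genes, which share libraries and are not independent, Spearman's rho between log2 change and length was 0.31, and over all 15082 genes it was 0.20. Length was taken as the ratio of counts to FPKM. With an offset for gene length fitted to all genes, the values were 0.04 and 0.00. The offset removes the trend with length over these same genes, so the 0.00 follows from the fit and is not a result. The median of the 46 became -0.683, and 25 were lower and 0 higher, against 7.75% and 5.58% of all genes. Under that offset the estimates for Mki67, Kif4, Anln, Bub1b and Ckap2 turned from above 0 to below it, at -0.23, -0.19, -0.12, -0.06 and -0.03, and none of these passed the test in either analysis.

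Of 4 ratios between partner genes that were planned with earlier results known, none passed the test and all had overlapping groups. On the log2 FPKM scale the inhibitor minus DMSO difference was 0.43 for Cks1b to Cks2 (two-sided exact permutation p = 0.2), -0.61 for Cdc25b to Cdc25c (exact p = 0.3), 0.05 for Aurkb to Incenp (exact p = 0.5) and -0.12 for Ccnb1 to Ccna2 (exact p = 0.8). Adjusted over the 4 these were 0.6, 0.6, 0.667 and 0.8. With 3 libraries against 3 the exact test cannot go below 0.1, so a difference could not have passed 0.05.

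Of a further 58 genes of mitosis outside this set, 6 were lower (10.3%) and 3 higher (5.17%) at an adjusted p under 0.05. By this rule the shares were near those over all genes, 7.80% and 6.98%. The median log2 change was -0.259. Without adjustment, 14 of the 58 were lower and 9 higher at p under 0.05 (edgeR), against 13.5% and 14.6% of all genes. Their inhibitor values lay below all DMSO values for 29.3% and above them for 17.2%, against 18.5% and 18.2% of all genes. DESeq2 called 22 of the 58, counting both directions. The largest fall was in Cdkn3, a phosphatase gene that acts on CDK-bound threonine, at 39.1, 25.5 and 36.6 CPM against 120, 143 and 129 CPM (log2 change -1.96 ± 0.19, adjusted p = 0.0014). Pbk, a mitotic kinase gene, fell by 1.005 ± 0.076 on the log2 scale and Cenpm, a gene of the inner kinetochore, by 0.77 ± 0.13. Gtse1 (1.099 ± 0.153), the centromere gene Cenpn (0.99 ± 0.16) and the condensin gene Ncapg (0.78 ± 0.09) rose. Fbxo5, an inhibitor of the anaphase-promoting complex, had a log2 change of 0.27 ± 0.14 and did not pass. The summed level of the 58 was 4527, 4432 and 4182 CPM with the inhibitor and 5294, 5438 and 5045 CPM with DMSO, a smaller gap than that of the 46.

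**Figure D5:**
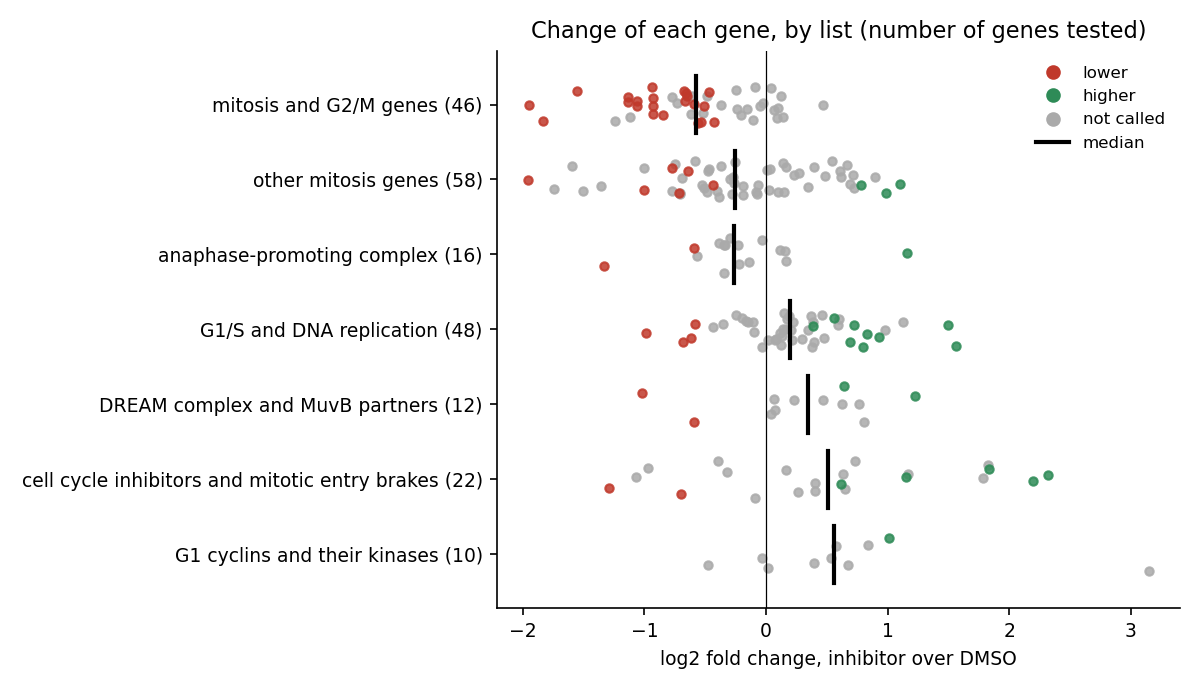
Log2 fold change of inhibitor over DMSO (x axis) of every tested gene in the mitosis and G2/M set and in 6 other cell cycle lists, with the number tested in parentheses; red genes were lower, green higher and grey not called at an adjusted p of 0.05, black bars are medians, and the vertical scatter within a row has no meaning. The 46 genes have their median at -0.575 and no green point, and each of the other lists holds genes that rose.

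The list of 48 genes of G1/S and DNA replication had 9 members higher (18.8%) and 4 lower (8.33%), with a median of 0.200. Cdc6 and Cdt1, which load the replicative helicase, rose by 1.559 ± 0.109 and 1.498 ± 0.197 on the log2 scale (adjusted p = 0.00044 and 0.0045), and Cdc45, part of the active helicase, by 0.83 ± 0.12. Rrm2, a subunit of ribonucleotide reductase, fell by 0.99 ± 0.08 (adjusted p = 0.00075), Dut by 0.68 ± 0.09 and Mcm5 by 0.62 ± 0.11. Their summed level was 12080, 11840 and 11380 CPM with the inhibitor and 11050, 11410 and 11400 CPM with DMSO, with the groups overlapping. Ccne1 was at a log2 change of 0.02 ± 0.23.

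Of 22 inhibitors of the cell cycle and brakes on mitotic entry, 5 rose (22.7%) and 2 fell (9.09%), with a median of 0.508. Cdkn1a, which encodes the CDK inhibitor p21, was at 184, 230 and 201 CPM with the inhibitor and 66.4, 54.3 and 51.8 CPM with DMSO (log2 change 1.83 ± 0.14, adjusted p = 0.00068). The growth-arrest gene Gadd45g rose by 2.20 ± 0.12 (adjusted p = 0.00024), and Ccng1, an atypical cyclin gene, by 1.15 ± 0.20 (adjusted p = 0.012). Cdkn2c and Cdkn2d, inhibitors of CDK4 and CDK6, fell by 1.30 ± 0.12 and 0.70 ± 0.14. Wee1, the kinase that holds CDK1 inactive, had a log2 change of 0.40 ± 0.19 and did not pass.

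The machinery that controls these promoters or destroys these proteins was followed in 3 short lists. Of 12 genes of DREAM and MuvB, 2 rose (16.7%) and 2 fell (16.7%), with 2 called in all under the replicate block. The 4 called without the block were Tfdp2 (1.23 ± 0.18) and Lin37 (0.64 ± 0.14), which rose, and Rbbp4 (-1.02 ± 0.21) and Tfdp1 (-0.60 ± 0.12), which fell. Mybl2, the B-MYB gene, was at 280, 311 and 342 CPM against 312, 281 and 294 CPM, a log2 change of 0.07 ± 0.10, and Lin9 at 0.07 ± 0.73. Of 16 genes of the anaphase-promoting complex, Cdc26 (-1.33 ± 0.35) and Anapc5 (-0.59 ± 0.06) fell (12.5%) and Anapc16 (1.16 ± 0.16) rose (6.25%), and its activator gene Fzr1 was at -0.34 ± 0.12 with an adjusted p of 0.10. The list of G1 cyclins and their kinases also holds regulators, and it is written as G1 cyclins below. Of the 10 genes tested there, the phosphatase gene Cdc25a (1.01 ± 0.21, adjusted p = 0.021) rose and none fell. The adjusted p of Cdc25a was 0.065 under the replicate block. Ccnd1 was near its floor, with under 1 CPM in every library.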

How the data were processed

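RNA of 6 αTC1 libraries (3 inhibitor, 3 DMSO) was sequenced by Smart-seq2, which does not keep strand, as 100 bp paired reads. The authors aligned reads with STAR to GRCm38 and deposited counts per gene, whole numbers without normalization, summed over Ensembl release 100 transcripts irrespective of strand, so reads of overlapping genes cannot be told apart. The authors also deposited FPKM values of the same genes. How these were made is not given in the sources used here.

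In R 4.3.3, counts were filtered with filterByExpr (minimum count 10, minimum total 15), scaled by TMM and tested with edgeR 4.0.16 (quasi-likelihood, Benjamini-Hochberg adjustment over all 15082 genes tested). Standard errors are the log2 fold change over the square root of F. The scripts were tested on simulated data. CPM are TMM-scaled. Alternatives used DESeq2 1.42.0, limma 3.58.1 on log2-transformed FPKM (pseudocounts 1 and 0.1), other scalings and filters, and each library left out. GC content offsets and thinned counts were added after seeing the data.

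The members and all lists were chosen with earlier results of these data known. Every member could be named. Each comparison list gave up to 3 called genes per direction with the smallest p, plus 8 genes fixed by name. Partner pairs outside 4 planned ratios were chosen after their values were seen, and not all of them are printed. Column letters match no replicate number in the labels. The study's methods tie the treatments of a replicate to one batch of cells, so the letters were also used as a replicate block, although deviations of same-letter columns from their group means correlated at only 0.007, 0.002 and 0.018. Overlaps and copies came from GENCODE vM21, where all 46 members had the coordinates of the files, with copies of at least 200 bases at 95% identity. Promoters came from RefSeq (GRCm38.p6). Printed windows hold at most 30 bases inside the annotated gene. The ± of a log2 change is the standard error of the edgeR fit. The ± of a mean level or of a ratio is the SD between the 3 libraries of a group. The libraries hold 59070705 to 94747943 counts each.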

Additional observations from a re-analysis of the deposited data

How the results depend on the processing

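In all 18 alternatives the 46 genes had 0 called higher, and between 14 and 29 called lower. The median was negative in each. Of the 22 genes called, 15 held their call in every alternative that kept all libraries and 13 in the leave-one-out runs as well (Plk1, Pttg1, Cdca3, Ube2c, Ccnb2, Prc1, Spc25, Birc5, Cenpa, Ccnb1, Mad2l1, Cenpf and Cdk1), and none changed direction. Without 1 library, 14 to 22 were lower, the lowest without DMSO library C. Those runs leave 2 libraries in a group, and their power is lower by construction.

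Scaling by library size alone moved the median of all genes from 0.041 to 0.246 and the calls from 1177 lower and 1053 higher to 796 and 1630. Under it 16 members were lower, 4 passed the study's filter, and the medians were -0.369 (members), -0.054 (other mitosis), 0.405 (G1/S, 23 called), -0.058 (anaphase-promoting complex), 0.553 (DREAM), 0.713 (inhibitors and brakes) and 0.766 (G1 cyclins, 3 called). Racgap1 (0.0033), Cks1b (0.0488), Incenp (0.0980), Nek2 (0.1143), Aurkb (0.1571) and Kif11 (0.1758) turned positive, and Nuf2, Cdca8, Kif20a, Top2a, Aurka and Tpx2 lost their calls. DESeq2 called 22 other mitosis, 22 G1/S, 5 anaphase-promoting complex and 3 G1 cyclin genes. At least 10 counts in every library gave 16 other mitosis genes, and limma on FPKM gave 14 with either pseudocount and 2 G1 cyclin genes, whose median was 0.365 with a pseudocount of 1. The cause was not tested.

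Gene length offsets gave medians of -0.683 (members), -0.403 (other mitosis), 0.104 (G1/S) and 0.426 (inhibitors and brakes), with Cks1b at 0.0128, Ckap2 at -0.0257, Kif4 at -0.1882, Bub1b at -0.0634, Mki67 at -0.2302, Anln at -0.1160 and Mybl2 at -0.0798. GC content offsets put Ckap2 at -0.0680. Whether the column letters mark paired replicates could not be settled. The replicate block by letter lowered the calls over all genes from 1177 lower and 1053 higher to 708 and 524, and those of members to 17, of DREAM to 2 and of G1 cyclins to 0; the members that lost their call were Nusap1, Kif20a, Top2a, Aurka and Tpx2. With the replicate block and gene length offsets together, 19 members, 3 inhibitors and brakes and 0 G1 cyclins were called, the medians were -0.697 (members), -0.419 (other mitosis), 0.099 (G1/S) and 0.425 (inhibitors and brakes), and Ckap2 was at -0.0252, Kif4 at -0.1977, Bub1b at -0.0232, Mki67 at -0.2620, Anln at -0.2052 and Mybl2 at -0.0854.

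With 1 library left out, the medians ran from -0.607 to -0.497 (members), -0.271 to -0.144 (other mitosis), 0.193 to 0.258 (G1/S), 0.129 to 0.536 (DREAM, 1 to 3 called), 0.435 to 0.634 (inhibitors and brakes, 4 to 6 called) and 0.399 to 0.612 (G1 cyclins, 0 to 1 called). Single genes that changed sign ran from -0.5298 to 0.0234 (Cks1b), -0.0704 to 0.1177 (Ckap2), -0.1456 to 0.4559 (Anln), -0.1944 to 0.0812 (Kif11), -0.1342 to 0.0170 (Aurkb), -0.0671 to 0.2307 (Kif4), -0.1315 to 0.2398 (Mki67), -0.0006 to 0.1432 (Mybl2), -0.1293 to 0.2465 (Bub1b) and -0.1500 to 0.0082 (Nek2). All of these genes were uncalled throughout.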
